A study of Homo sapiens with 8 samples.

Results

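Hepatocyte identity transcription factors are the regulators that switch on and maintain the gene program of the liver cell. The 8 genes described here, HNF4A, FOXA1, FOXA2, FOXA3, CEBPA, CEBPB, ONECUT1 and NR5A2, were found by matching their symbols to Entrez gene IDs, and they are 8 of the 26235 genes counted. Their mRNA was measured by RNA-Seq in HepG2 cells, a human hepatocellular carcinoma line, to compare the action of estradiol and of agonists of each estrogen receptor. The 4 groups held 2 libraries each. E2 cells received 17β-estradiol, the natural steroid estrogen. PPT cells received a nonsteroidal agonist selective for estrogen receptor α (ERα), and DPN cells a nonsteroidal agonist selective for ERβ, both at the E2 dose of 1 µM. Control cells received the vehicle DMSO, in which every compound had been dissolved. All cells were grown without phenol red in charcoal-stripped serum, which lowers the background of estrogens, were starved for 16 h in 0.1% serum and were harvested after 48 h of treatment. HepG2 is a single tumor line with no other liver cell types, so no result below comes from normal hepatocytes.

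HNF4A is a nuclear receptor that binds many promoters and enhancers active in the liver and is needed for most of the mature hepatocyte program. The FOXA proteins are forkhead pioneer factors that can bind closed chromatin and open it for other regulators, and ERα uses FOXA1 in this way in breast cells. CEBPA and CEBPB are basic leucine zipper factors of metabolic and acute-phase genes, ONECUT1 (HNF6) is a cut-homeodomain factor of liver and bile duct development, and NR5A2 (LRH-1) is an orphan nuclear receptor of bile acid and cholesterol metabolism. These factors bind each other's genes and so form a network with many cross connections.

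On GRCh38 (GENCODE 44 positions) HNF4A (GeneID 3172) lies at chr20:44355699-44432845 on the plus strand. FOXA1 (GeneID 3169) lies at chr14:37589552-37596059 and FOXA2 (GeneID 3170) at chr20:22580998-22585455, both on the minus strand, while FOXA3 (GeneID 3171) lies at chr19:45863989-45873797 on the plus strand. CEBPA (GeneID 1050) at chr19:33299934-33302534 on the minus strand and CEBPB (GeneID 1051) at chr20:50190830-50192668 on the plus strand are genes of a single exon. ONECUT1 (GeneID 3175) lies at chr15:52755053-52791078 on the minus strand and NR5A2 (GeneID 2494) at chr1:200027614-200177420 on the plus strand.

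The 250 bases before a transcription start are shown for the genes on which the results turn, from RefSeq on GRCh38.p14. HNF4A is shown with both of its starts, because a count per gene cannot tell them apart. The same holds for CEBPB and NR5A2, of which only start 2 is shown. CEBPA and CEBPB are shown as 2 members of a family that both fell with E2 and with DPN, and ONECUT1 and NR5A2 as the genes with the largest changes among the 8. Capitals mark matches to the searched motifs other than the GC box, and each line ends at the base before the start. By the GENCODE positions above, the ONECUT1 window also lies inside its gene.
HNF4A start 1, chr20:44355449-44355698, plus strand: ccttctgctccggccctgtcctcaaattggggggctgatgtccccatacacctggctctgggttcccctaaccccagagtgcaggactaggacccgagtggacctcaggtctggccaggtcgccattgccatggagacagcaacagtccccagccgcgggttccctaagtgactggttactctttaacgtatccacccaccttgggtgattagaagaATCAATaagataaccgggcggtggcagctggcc
HNF4A start 2, chr20:44400989-44401238, plus strand, inside the gene: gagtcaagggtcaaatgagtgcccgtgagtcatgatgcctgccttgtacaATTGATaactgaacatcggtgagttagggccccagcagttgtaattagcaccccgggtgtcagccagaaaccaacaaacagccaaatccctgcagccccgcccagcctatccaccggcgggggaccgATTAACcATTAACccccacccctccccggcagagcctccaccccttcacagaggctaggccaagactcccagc
CEBPA, chr19:33302535-33302784, minus strand, between CEBPA and CEBPA-DT: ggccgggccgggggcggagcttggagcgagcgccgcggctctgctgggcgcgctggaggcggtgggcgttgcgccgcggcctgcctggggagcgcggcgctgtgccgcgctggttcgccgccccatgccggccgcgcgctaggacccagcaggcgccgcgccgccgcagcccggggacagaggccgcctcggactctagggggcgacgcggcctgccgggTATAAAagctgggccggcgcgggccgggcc
CEBPB start 2, chr20:50190580-50190829, plus strand, within the antisense gene CEBPB-AS1: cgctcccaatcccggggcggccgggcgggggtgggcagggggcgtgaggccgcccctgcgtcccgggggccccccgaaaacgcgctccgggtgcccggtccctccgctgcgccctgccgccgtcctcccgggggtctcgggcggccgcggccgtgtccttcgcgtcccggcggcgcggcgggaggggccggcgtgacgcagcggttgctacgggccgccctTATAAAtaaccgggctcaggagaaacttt
ONECUT1, chr15:52790337-52790586, minus strand: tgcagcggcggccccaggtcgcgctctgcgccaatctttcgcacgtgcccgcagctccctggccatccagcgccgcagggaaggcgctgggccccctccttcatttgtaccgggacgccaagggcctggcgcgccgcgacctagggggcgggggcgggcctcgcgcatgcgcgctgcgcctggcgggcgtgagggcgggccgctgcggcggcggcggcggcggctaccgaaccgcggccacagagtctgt
NR5A2 start 2, chr1:200042341-200042590, plus strand, inside the gene: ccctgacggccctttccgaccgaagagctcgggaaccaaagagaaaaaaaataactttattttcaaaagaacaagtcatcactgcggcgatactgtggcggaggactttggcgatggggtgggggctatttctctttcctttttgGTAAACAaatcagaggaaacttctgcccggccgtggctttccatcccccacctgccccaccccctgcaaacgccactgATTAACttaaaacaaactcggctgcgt

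7 of the 8 genes were in the promoter table, with 10 starts, and FOXA2 is named only. 9 motifs were searched on both strands in 35116 promoters of this length: GTTAAT for HNF1 (in 6.23% of them), ATCAAT for ONECUT (5.58%), TGTTTAC for FOX (2.98%), TTGCNNAA for C/EBP (9.05%), AAGGTCA for NR5A (3.44%), CAAAGTCCA for HNF4 (0.325%), GGTCA and TGACC spaced by 3 bases for the estrogen response element (0.0399%), TATAAA for the TATA box (10.7%) and GGGCGG for the GC box (42.6%). Start 1 of HNF4A held the ONECUT letters 33 to 28 bases before the start. Start 2 of HNF4A held the ONECUT letters 200 to 195 bases before it. It also held the HNF1 letters at 73 to 68 and again at 66 to 61 bases. All of these were on the opposite strand. The CEBPA promoter had TATAAA 30 to 25 bases before its start and CEBPB start 2 had it 29 to 24 bases before. CEBPB start 1, not shown, had only GC boxes, 4 of them. Start 2 of NR5A2 held the FOX letters 105 to 99 bases and the HNF1 letters 27 to 22 bases before it, both on the opposite strand. NR5A2 start 1, not shown, had only TATAAA, 201 to 196 bases before it on the opposite strand. ONECUT1 had only GC boxes, 3 of them. None of the windows searched for these genes held the estrogen response element as spelled here, and these matches describe letters, not binding.

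Each library held 25103160 to 29670814 gene counts, and all 8 genes passed the filter on low counts, as did 15460 genes in all. Levels are given as CPM, counts scaled to a common library total, after TMM scaling, which corrects that total for composition. A gene was said to rise or fall at an adjusted p under 0.05 in edgeR's quasi-likelihood test, fitted over all 8 libraries with Benjamini-Hochberg adjustment over all genes tested, and to be called where the log2 fold change also exceeded 1.5 in size at an adjusted p under 0.01. Whether replicates came from separate cultures is not stated. The p-values therefore reflect the spread between these libraries alone, and that spread may be technical. The study states 3 replicates per group, 2 libraries per group were analysed here, and labels and methods name different sequencing instruments. All 12 hepatocyte markers were above 1 CPM in each group, with a summed level of 85000 to 89400 CPM in E2, 40700 to 44100 in PPT, 43300 to 43800 in DPN and 60900 to 61800 in Control libraries. The markers of other liver cell types also differed in sum. The 8 cholangiocyte markers, mainly SPP1 and SOX9, summed to 1230 CPM in both E2 libraries, 1080 to 1160 in PPT, 1450 to 1520 in DPN and 676 to 699 in Control. The 7 leukocyte markers, nearly all LYZ, summed to 1530 to 1550 CPM in E2, 567 to 578 in PPT, 1120 to 1150 in DPN and 1200 to 1220 in Control. The 7 stellate and fibroblast markers lay between 16.2 and 53.3 CPM and the 7 endothelial markers between 2.71 and 16.5 CPM, highest in E2. KRT7, CFTR, COL1A1, COL3A1, DCN, LUM, KDR and CD3E had at most 8 counts over all libraries, PTPRC had 22, and CLEC4G and MARCO had 0. The part of these marker differences in the results below was not tested. In bulk RNA, a smaller share of cells with a transcript and less transcript per cell cannot be told apart.

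E2 changed the 8 factors in both directions, and most of them were lower with PPT and DPN. With E2, ONECUT1 and FOXA2 rose, FOXA1, FOXA3, CEBPA, CEBPB and NR5A2 fell, and HNF4A did not pass the test, which made 2 higher and 5 lower of 8. Of all tested genes, 30.8% rose and 31.8% fell with E2, 62.6% in either direction. The 5 lower genes became 3 without Control replicate 1, without E2 replicate 2 or in DESeq2 on 8 libraries, since FOXA3 and NR5A2 then missed the threshold. With PPT 0 rose and 5 fell (HNF4A, FOXA1, FOXA2, FOXA3 and NR5A2), against 22.9% and 22.8% of all genes, or 45.7% in either direction. With DPN 0 rose and 7 fell, all but NR5A2, against 24.4% and 24.1% of all genes, or 48.5% in either direction. The 2 libraries of a treatment lay wholly above or below both Control libraries for 7 factors with E2, 6 with PPT and 7 with DPN, where 81.1%, 71.3% and 74.5% of all tested genes did so. Median log2 fold changes of the 8 were -0.33 (E2), -0.42 (PPT) and -0.52 (DPN), against 0, 0.01 and 0 over all genes tested. The 0 rises with PPT and DPN were also 0 at an unadjusted p under 0.05 and in DESeq2, and without PPT replicate 1 there was 1 rise with PPT, of CEBPB. Only ONECUT1 with E2 was called in these comparisons with Control, where 7.15% of genes were called higher and 2.98% lower. No factor was called with PPT (1.90% of all genes higher, 2.86% lower) or DPN (1.92% and 2.02%). Scaling by library size alone lowered the median of all genes by 0.22 (log2) in the comparison of E2 with Control, and 33.6% of the changed genes were then higher, against 49.3% with TMM. Under that scaling 1 factor, ONECUT1, was higher with E2. The 3 comparisons share their Control libraries.

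**Figure D1:**
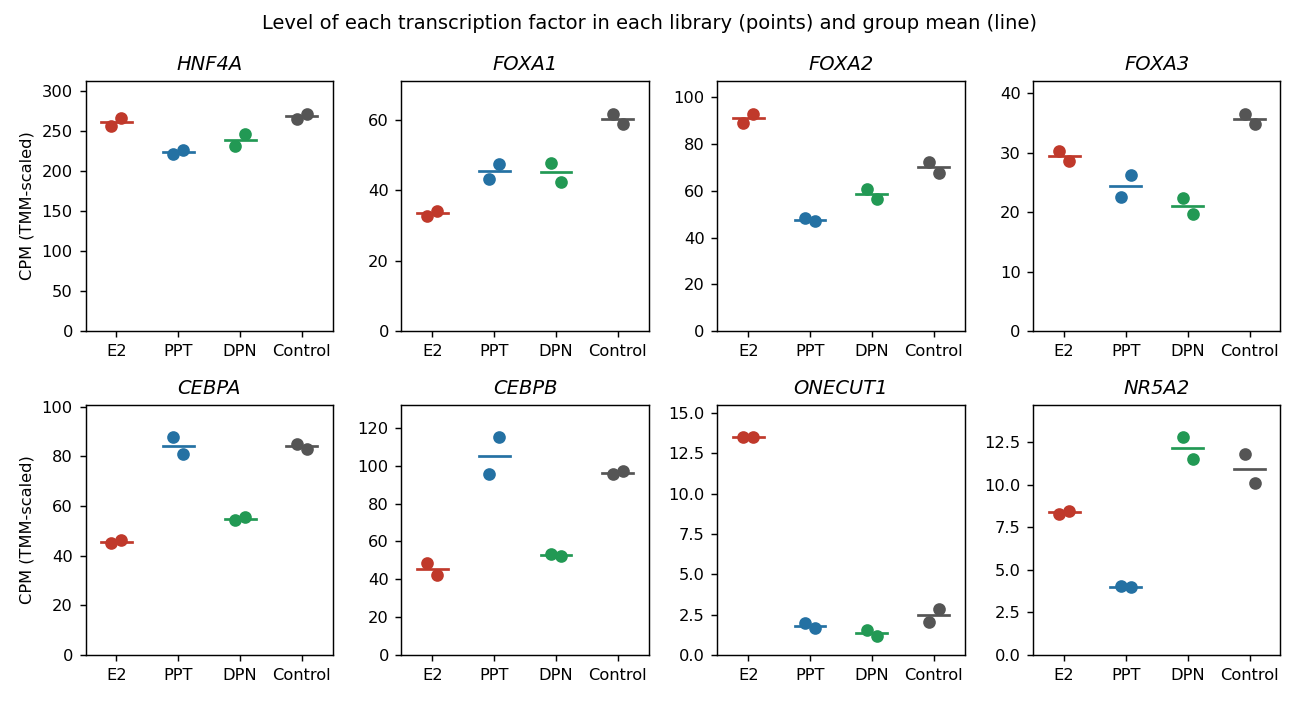
Level of each of the 8 transcription factors in CPM (TMM-scaled, linear axis from 0), with 1 point per library and a line at the mean of the 2 libraries of E2, PPT, DPN and Control cells. ONECUT1 stood at 13.5 CPM in both E2 libraries and at no more than 2.85 CPM elsewhere, while CEBPA and CEBPB were low in E2 and DPN cells.

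HNF4A had 257 and 266 CPM in E2 libraries, 222 and 226 in PPT, 231 and 247 in DPN, and 265 and 272 in Control libraries. The E2 and Control libraries overlapped, and both PPT and both DPN libraries lay below both Control libraries. Its mean was 262 ± 6.15 CPM in E2, 224 ± 3.05 in PPT, 239 ± 11.2 in DPN and 269 ± 5.09 in Control (SD, n = 2 each). HNF4A fell to 83.4% of Control with PPT (log2 fold change -0.26, SE 0.06, adjusted p = 0.00126) and to 89% with DPN (-0.17, SE 0.06, adjusted p = 0.0306). The DPN difference missed the threshold without Control replicate 1 (adjusted p = 0.0803), Control replicate 2 (0.152) or DPN replicate 1 (0.26). E2 against Control gave a log2 fold change of -0.04 with an interval of -0.17 to 0.09 (95%, adjusted p = 0.622). Scaled by library size alone, that value was -0.26 (adjusted p = 0.000815). In the order Control, E2, DPN and PPT, no neighbouring groups passed the test as fitted, but E2 against DPN did so with upper-quartile scaling (0.19, adjusted p = 0.0124) and with a filter of 1 CPM in 2 libraries (0.16, adjusted p = 0.033).

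The FOXA genes, all forkhead pioneer factors, split with E2. FOXA1 had 32.8 and 34.2 CPM in E2, 43.3 and 47.6 in PPT, 47.9 and 42.3 in DPN, and 61.8 and 58.8 in Control libraries. All treated libraries lay below both Controls, the E2 libraries lowest. FOXA1 fell to 55.5% of Control with E2 (log2 fold change -0.85, SE 0.09, interval -1.03 to -0.66, adjusted p = 6.27e-09), to 75.5% with PPT (-0.41, SE 0.09, adjusted p = 0.000398) and to 74.8% with DPN (-0.42, SE 0.09, adjusted p = 0.00026). FOXA2, which is also expressed in the foregut endoderm from which the liver forms, had 88.8 and 92.9 CPM in E2, 48.3 and 47.1 in PPT, 60.9 and 56.6 in DPN, and 72.4 and 67.5 in Control. No libraries of different groups overlapped, and the order was E2, Control, DPN and PPT. FOXA2 rose 1.3-fold with E2 (log2 fold change 0.38, SE 0.08, interval 0.22 to 0.54, adjusted p = 0.000124), but by 0.15 (adjusted p = 0.0836) when scaled by library size alone. It fell to 68.2% of Control with PPT (-0.55, SE 0.08, adjusted p = 1.52e-06) and to 84.1% with DPN (-0.25, SE 0.08, adjusted p = 0.00875). The fall with DPN missed the threshold without Control replicate 1 (adjusted p = 0.124) or DPN replicate 2 (0.114). FOXA3, a FOXA gene of the liver and other endodermal tissue, had 30.4 and 28.6 CPM in E2, 22.6 and 26.3 in PPT, 22.4 and 19.8 in DPN, and 36.6 and 34.8 in Control. Every treated library was below both Controls. FOXA3 fell to 59% of Control with DPN (-0.76, SE 0.1, adjusted p = 9.07e-07), to 68.6% with PPT (-0.54, SE 0.1, adjusted p = 9.02e-05) and to 82.6% with E2 (-0.28, SE 0.1, adjusted p = 0.0231). The fall with E2 missed the threshold without Control replicate 1 (adjusted p = 0.123), without E2 replicate 2 (0.13) or in DESeq2 on 8 libraries (0.053).

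Divided by the length of the canonical transcript, so that genes can be compared, FOXA2 made up 58.2% and 59.8% of the summed FOXA level in E2 libraries, 44.1% and 40.5% in PPT, 48.7% and 50% in DPN, and 43.8% and 43.3% in Control. The FOXA2 share was thus highest in E2 cells, and the E2 libraries lay apart from the rest. FOXA1 made up 15.5% and 15.9% in E2 and 27% to 29.6% in all other libraries. FOXA3 ranged from 23% to 29.9% over the 8 libraries.

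**Figure D2:**
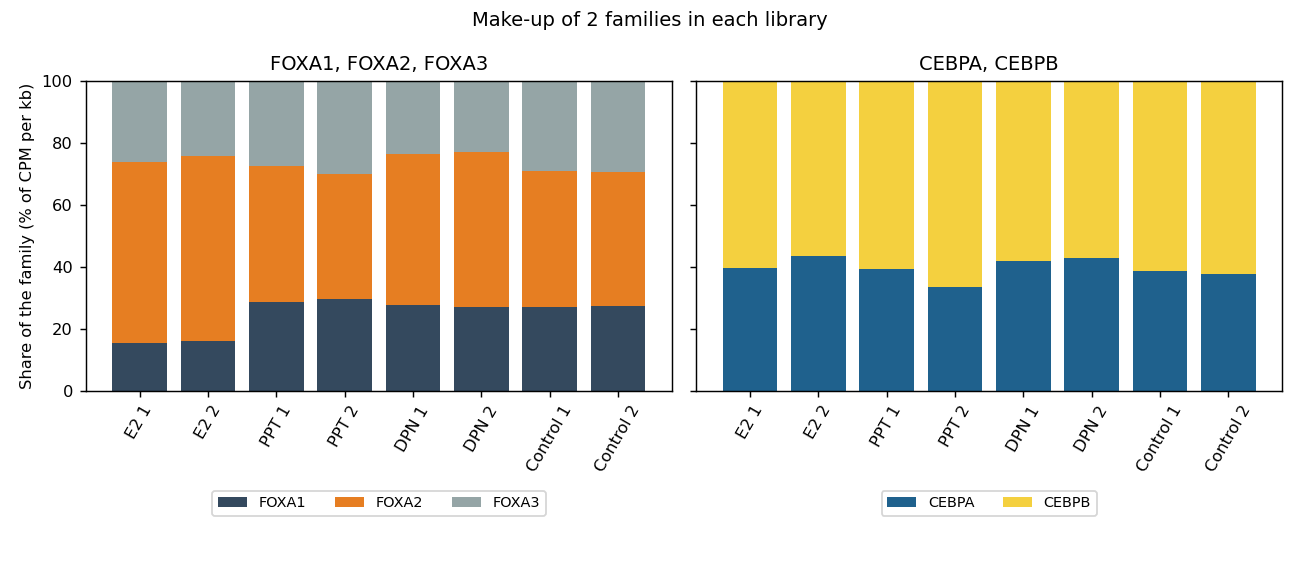
Share of each gene in a summed level (% of CPM per kb of canonical transcript) in each library. The left panel sums FOXA1, FOXA2 and FOXA3, and the right panel sums only the pair CEBPA and CEBPB, without other C/EBP genes. FOXA2 took 58.2% and 59.8% in the E2 libraries and 40.5% to 50% elsewhere, and CEBPB took 56.4% to 66.7% over all libraries.

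CEBPA and CEBPB were lower in E2 and DPN cells and close to Control in PPT cells. CEBPA, which restrains proliferation and drives metabolic genes of the mature hepatocyte, had 45.1 and 46.3 CPM in E2, 87.7 and 81 in PPT, 54.4 and 55.5 in DPN, and 85 and 83.1 in Control libraries. The E2 and DPN libraries lay below all PPT and Control libraries, which overlapped each other. CEBPA fell to 54.4% of Control with E2 (log2 fold change -0.88, SE 0.08, interval -1.04 to -0.72, adjusted p = 1.75e-10) and to 65.4% with DPN (-0.61, SE 0.08, adjusted p = 1.67e-07). With PPT the difference was 0.01 (interval -0.15 to 0.16, adjusted p = 0.965), and its sign depended on the scaling. CEBPB, the C/EBP factor of the acute-phase and regenerative response, had 48.6 and 42.3 CPM in E2, 95.4 and 115 in PPT, 53.3 and 52.4 in DPN, and 95.7 and 97 in Control. Again E2 and DPN libraries lay below the rest. CEBPB fell to 47.2% of Control with E2 (-1.08, SE 0.09, interval -1.26 to -0.90, adjusted p = 2.9e-11) and to 54.9% with DPN (-0.87, SE 0.09, adjusted p = 3.06e-09). PPT gave 0.12 (interval -0.05 to 0.30, adjusted p = 0.234), which became 0.25 (adjusted p = 0.0179) without PPT replicate 1 and -0.01 without PPT replicate 2. Per kilobase, CEBPB made up 60.4% and 56.4% of the pair in E2, 60.6% and 66.7% in PPT, 58.1% and 57.2% in DPN, and 61.4% and 62.3% in Control, so that the makeup of the pair moved less than its sum. Their relative CEBPD went the other way, rising with E2 (1.82, adjusted p = 3.74e-10) and falling with PPT (-0.81, adjusted p = 0.00106). CEBPG, another relative, fell with E2 (-0.59, adjusted p = 3.77e-08) and rose with PPT (0.29, adjusted p = 0.000895). With DPN both relatives narrowly missed the threshold, CEBPD at 0.41 (adjusted p = 0.0528) and CEBPG at -0.16 (adjusted p = 0.0514).

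ONECUT1 had the largest change of the 8 genes. It had 13.5 CPM in both E2 libraries, 1.98 and 1.64 in PPT, 1.56 and 1.2 in DPN, and 2.06 and 2.85 in Control. In raw counts these were 301 and 321 in E2, 54 and 49 in PPT, 45 and 35 in DPN, and 64 and 84 in Control libraries. The E2 libraries stood far above all others, and both PPT and both DPN libraries lay below both Controls. ONECUT1 rose 5.5-fold with E2 (log2 fold change 2.46, SE 0.21, interval 2.02 to 2.90, adjusted p = 1.21e-10), a larger size of change than in 95.9% of tested genes. The log2 value stayed between 2.23 and 2.68 over the alternatives run. With DPN ONECUT1 fell to 56.4% of Control (-0.83, SE 0.26, interval -1.36 to -0.30, adjusted p = 0.00948). That fall missed the threshold without Control replicate 2 (adjusted p = 0.147), without DPN replicate 2 (0.0924) or in DESeq2 on 4 libraries (0.136). PPT gave -0.44 (SE 0.25, interval -0.95 to 0.07, adjusted p = 0.156). ONECUT2, its relative, had 24.4 ± 0.332 CPM in E2, 43.7 ± 2.08 in PPT, 27.1 ± 2.01 in DPN and 26.7 ± 2.12 in Control (SD, n = 2 each). ONECUT2 rose with PPT (log2 fold change 0.71, adjusted p = 1.03e-06) and did not pass the test with E2 (-0.14, adjusted p = 0.255).

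NR5A2 was lowest in PPT cells. It had 8.32 and 8.46 CPM in E2, 4.03 and 3.98 in PPT, 12.8 and 11.5 in DPN, and 11.8 and 10.1 in Control libraries. Both PPT libraries lay below all others, the E2 libraries came next, and DPN and Control overlapped. NR5A2 fell to 36.5% of Control with PPT (log2 fold change -1.45, SE 0.16, interval -1.78 to -1.12, adjusted p = 1.99e-08), a larger size of change than in 92.7% of tested genes and just short of the fold needed for a call. Without Control replicate 2 the value was -1.56 (adjusted p = 5.78e-08), which is past that fold, and without Control replicate 1 it was -1.34. With E2 it fell to 76.5% (-0.39, SE 0.15, adjusted p = 0.0274). That difference missed the threshold in DESeq2 on 8 (adjusted p = 0.0899) and 4 libraries (0.121), and without Control replicate 1 (0.232), E2 replicate 1 (0.0849) or E2 replicate 2 (0.0711). DPN gave 0.15 (interval -0.15 to 0.44, adjusted p = 0.413). Its relative NR5A1, the steroidogenic factor known mainly from adrenal and gonad, had 45.2 ± 2.79 CPM in E2, 42.5 ± 0.723 in PPT, 34.8 ± 0.281 in DPN and 46.1 ± 1.87 in Control, and fell with DPN (log2 fold change -0.41, adjusted p = 0.000355).

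**Figure D3:**
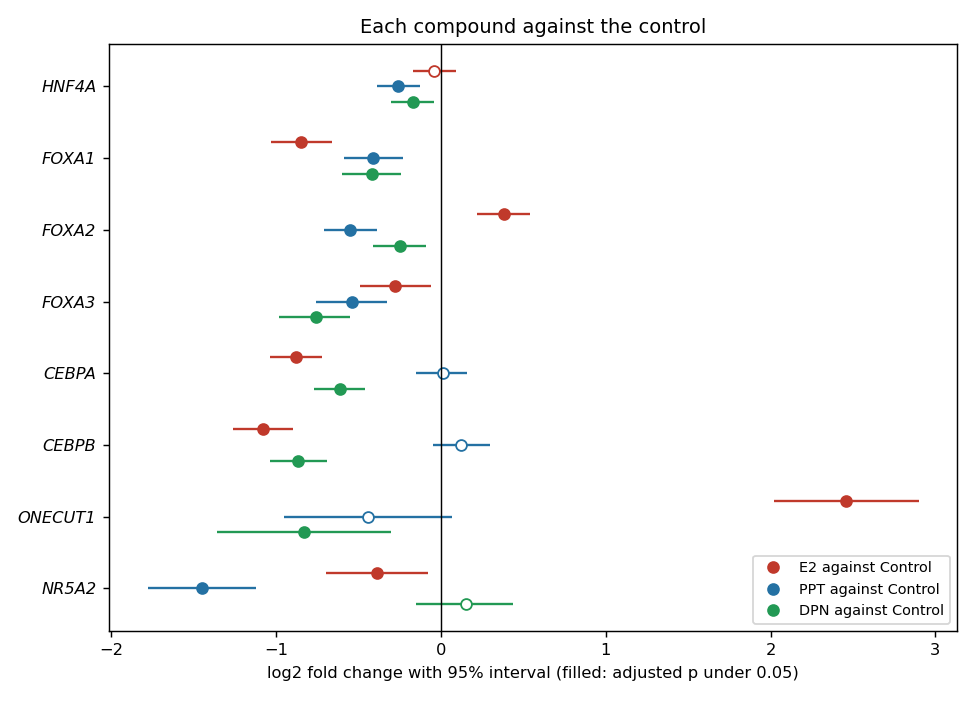
Log2 fold change of each factor with E2, PPT or DPN against Control, with its 95% interval and filled points where the adjusted p was under 0.05. ONECUT1 and FOXA2 with E2 are the filled points above 0, at 2.46 and 0.38, and NR5A2 with PPT is the lowest at -1.45.

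Dose and time were matched, so the compounds were also compared directly, in 3 pairs for each of the 8 genes. E2 and PPT differed in all 8 genes, 5 higher and 3 lower with E2, where 62.1% of all tested genes differed (30.1% higher, 32.1% lower). E2 and DPN differed in 7, 3 higher and 4 lower with E2 (63.9% of all genes, 32.6% higher and 31.3% lower). DPN and PPT differed in 4, 2 higher and 2 lower with DPN (37.8% of all genes, 19.1% higher and 18.8% lower). The steroid E2 gave 7.46-fold more ONECUT1 than PPT (log2 fold change 2.90, SE 0.22, adjusted p = 9.76e-12) and 9.75-fold more than DPN (3.28, SE 0.23, adjusted p = 1.63e-12), both called. Of all genes, 7.85% were called higher and 3.03% lower with E2 against PPT, and 7.43% and 3.27% against DPN. FOXA2 was 1.9-fold higher with E2 than with PPT (0.93, adjusted p = 6.44e-11) and 1.55-fold higher than with DPN (0.63, adjusted p = 7.42e-08), and FOXA1 was lower with E2 than with PPT (-0.44, adjusted p = 0.00015) or DPN (-0.43, adjusted p = 2e-04). CEBPA was lower with E2 than with PPT (-0.88, adjusted p = 1.48e-10), as was CEBPB (-1.21, adjusted p = 2.69e-12). E2 and DPN were much closer there, at -0.27 for CEBPA (adjusted p = 0.00465) and -0.22 for CEBPB (adjusted p = 0.0347). The CEBPB difference missed the threshold in DESeq2 on 8 libraries (adjusted p = 0.0519), with upper-quartile scaling (0.118) and with a filter of 1 CPM in 2 libraries (0.058). That difference also missed it without E2 replicate 2 (log2 fold change -0.13), DPN replicate 1 (-0.21) or DPN replicate 2 (-0.24). NR5A2 was 2.09-fold higher with E2 than with PPT (1.07, adjusted p = 3.28e-06) while against DPN it was lower in E2 cells (-0.54, adjusted p = 0.00292).

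The 2 nonsteroidal agonists differed most in NR5A2, which was 3.03-fold higher with DPN than with PPT (log2 fold change 1.60, SE 0.16, interval 1.27 to 1.93, adjusted p = 1.08e-08). This was the only factor called between them, where 0.957% of all genes were called higher and 0.414% lower with DPN. CEBPA (-0.62, adjusted p = 3.55e-07) and CEBPB (-0.99, adjusted p = 9.85e-10) were lower with DPN than with PPT, and FOXA2 was higher (0.30, adjusted p = 0.00349, and 0.0666 without DPN replicate 1). No difference passed the test for HNF4A (0.09, interval -0.04 to 0.23), FOXA1 (-0.01, interval -0.19 to 0.17), FOXA3 (-0.22, interval -0.43 to 0) or ONECUT1 (-0.39, interval -0.94 to 0.17), with adjusted p of 0.257, 0.93, 0.116 and 0.279. The FOXA3 value became -0.32 (adjusted p = 0.0422) without PPT replicate 1. HNF4A was higher with E2 than with PPT (0.22, adjusted p = 0.00346), and against DPN it gave 0.13 (interval 0 to 0.26, adjusted p = 0.0775). FOXA3 was higher in E2 than in DPN cells (0.48, adjusted p = 0.000303), and higher than in PPT cells (0.27, adjusted p = 0.0301). The FOXA3 difference from PPT missed the threshold in 6 alternatives, among them without PPT replicate 1 (adjusted p = 0.279), E2 replicate 1 (0.16) or Control replicate 2 (0.0518). By library size alone, E2 against PPT gave 0.01 for HNF4A (adjusted p = 0.89) and 0.05 for FOXA3 (adjusted p = 0.662), so 3 factors were higher there. That scaling moved the median of all genes by -0.21 against PPT and -0.2 against DPN, and the share higher among changed genes was 34.3% against PPT and 37.7% against DPN, in place of 48.4% and 51%.

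**Figure D4:**
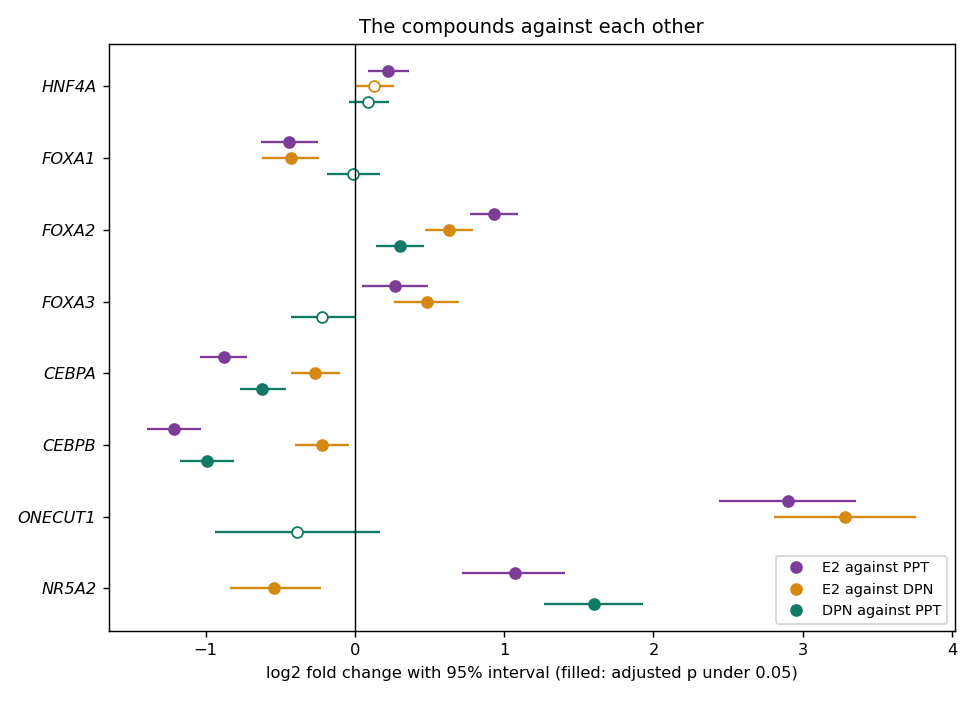
Log2 fold change between compounds (E2 over PPT, E2 over DPN and DPN over PPT) for each factor, with its 95% interval and filled points where the adjusted p was under 0.05. ONECUT1 separates E2 from PPT (2.90) and DPN (3.28), and NR5A2 separates DPN from PPT (1.60).

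Levels can be compared between the genes only per kilobase of transcript. In E2 cells HNF4A led with 56.3 CPM per kb, followed by FOXA2 with 35.8, CEBPB with 24.7, CEBPA with 17.6, FOXA3 with 15.3, FOXA1 with 9.54, ONECUT1 with 3.1 and NR5A2 with 1.69. In Control cells the order was HNF4A with 57.8, CEBPB with 52.4, CEBPA with 32.3, FOXA2 with 27.5, FOXA3 with 18.6, FOXA1 with 17.2, NR5A2 with 2.21 and ONECUT1 with 0.564. FOXA2 thus stood above both C/EBP genes in E2 cells and below them in Control cells, and ONECUT1 and NR5A2 changed places. The lengths are those of canonical transcripts, and with the union of all exons, a choice made after seeing the data, FOXA2 led in E2 cells with 33.4 and HNF4A had 25.7, and CEBPB led in Control cells with 52.4 and HNF4A had 26.4.

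4 noncoding genes beside the factors were in the files and were tested. LINC00261, a long noncoding RNA 2355 bases from FOXA2 on the same strand, had 180 and 188 CPM in E2, 59 and 61.7 in PPT, 77.9 and 73.8 in DPN, and 92.6 and 97.2 in Control. Its groups stood in the same order as those of FOXA2, and LINC00261 rose with E2 (log2 fold change 0.95, adjusted p = 4.26e-12) and fell with PPT (-0.65, adjusted p = 2.06e-08) and DPN (-0.32, adjusted p = 0.000425). CEBPB-AS1 had 19.3 and 17.7 CPM in E2, 36.5 and 39.9 in PPT, 14 and 15.7 in DPN, and 34.5 and 35.3 in Control. CEBPB-AS1 fell with E2 (-0.92, adjusted p = 2.23e-08) and DPN (-1.23, adjusted p = 1.84e-10). It overlaps CEBPB by 669 bases on the opposite strand, 231 of them exonic in both. Since the use of strand in counting is not stated, reads of CEBPB and CEBPB-AS1 cannot be told apart there. CEBPA-DT, which starts 322 bases from CEBPA in the opposite direction, averaged 3.86 ± 0.142 CPM in E2, 6.26 ± 0.425 in PPT, 3.98 ± 0.0968 in DPN and 2.67 ± 0.397 in Control. CEBPA-DT rose with PPT (1.23, adjusted p = 2.41e-05), E2 (0.53, adjusted p = 0.0407) and DPN (0.58, adjusted p = 0.0297). HNF4A-AS1, inside HNF4A on the opposite strand with no shared exon, did not pass the test with E2 (0.63, adjusted p = 0.113). Among all tested genes 30.8% rose and 31.8% fell with E2, 22.9% and 22.8% with PPT, and 24.4% and 24.1% with DPN. Of the 4 noncoding genes, 2 rose and 1 fell with E2, 1 rose and 1 fell with PPT, and 1 rose and 2 fell with DPN. The count of rises with E2 was 1 without Control replicate 1, E2 replicate 1 or E2 replicate 2, and that with DPN was 0 without Control replicate 1, DPN replicate 1 or DPN replicate 2 and in DESeq2.

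A list of 27 other liver transcription factors, all tested, moved both ways with E2, while more of them fell than rose with PPT and with DPN. With E2 11 rose and 10 fell (median log2 fold change 0.08), with PPT 2 rose and 15 fell (-0.34), and with DPN 1 rose, 11 fell and 15 did not pass the test (-0.18). Over all tested genes 30.8% rose and 31.8% fell with E2, 22.9% and 22.8% with PPT, and 24.4% and 24.1% with DPN. RORA, a nuclear receptor of the circadian clock and lipid metabolism, had 160 ± 8.74 CPM in E2, 16.5 ± 0.758 in PPT, 20.1 ± 1.37 in DPN and 17.2 ± 0.673 in Control, and rose with E2 (log2 fold change 3.21, SE 0.09, adjusted p = 7.49e-21). PROX1, a homeodomain factor of the early liver bud, rose with E2 (1.42, adjusted p = 2.49e-15), as did PPARA, the nuclear receptor of fatty acid oxidation (1.28, adjusted p = 7.04e-14). HHEX, a homeodomain factor of liver budding, fell with PPT (-1.3, adjusted p = 9.13e-12) and rose with E2 (0.71, adjusted p = 1.75e-07). The single rise with DPN, PPARA (0.39, adjusted p = 0.00013), became 3 genes with RLE scaling or without either PPT library, and 2 without either DPN library.

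Genes known as targets of the factors were taken as 5 lists from general knowledge, which share members such as G6PC1 and PCK1 and, for ONECUT1, include FOXA2 and HNF4A. For comparison, 30.8% of all tested genes rose and 31.8% fell with E2, 22.9% and 22.8% with PPT, and 24.4% and 24.1% with DPN. Of the HNF4A list 20 of 24 genes were tested: 9 rose and 6 fell with E2 (median 0.19), 3 rose and 12 fell with PPT (-0.85), and 3 rose and 12 fell with DPN (-0.46). G6PC1, the last enzyme of glucose release, had 41.1 ± 0.493 CPM in E2, 4.25 ± 0.52 in PPT, 9.4 ± 0.47 in DPN and 3.34 ± 0.444 in Control, and rose with E2 (log2 fold change 3.62, SE 0.14, adjusted p = 7.92e-18). PCK1, which controls gluconeogenesis, rose with E2 (3.04, adjusted p = 5.35e-17), and APOC3, an inhibitor of triglyceride clearance, rose with E2 (1.75, adjusted p = 6.12e-17). AGT, the precursor of angiotensin, fell with PPT (-1.36, adjusted p = 2.86e-16). OTC, a urea cycle enzyme, had no counts in PPT libraries, which made it at least 10.4-fold lower than the 0.548 CPM of Control (floor of 3 counts over the group), and the median of the list with PPT was -0.85 also at that bound.

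Of the FOXA list 12 of 14 genes were tested: 7 rose and 2 fell with E2 (median 1.06), 2 rose and 4 fell with PPT (-0.13), and 5 rose and 4 fell with DPN (-0.01). IGFBP1, a secreted binding protein of insulin-like growth factors, rose with all compounds and most with DPN (3.28, adjusted p = 2.76e-22). The fetal serum protein AFP fell with E2 (-0.56, adjusted p = 4.31e-09), PPT (-1.39, adjusted p = 1.15e-16) and DPN (-1.27, adjusted p = 7.12e-16). DPN against PPT did not pass the test for AFP (0.11, adjusted p = 0.131). Of the C/EBP list 13 of 20 were tested: 9 rose and 2 fell with E2 (0.95), 5 rose and 4 fell with PPT (-0.11), and 5 rose and 5 fell with DPN (-0.11). Beside both lists, 30.8% of all tested genes rose and 31.8% fell with E2, 22.9% and 22.8% with PPT, and 24.4% and 24.1% with DPN. HP, the hemoglobin scavenger haptoglobin, had 727 ± 14.8 CPM in E2, 54.7 ± 1.47 in PPT, 265 ± 11.9 in DPN and 154 ± 7.03 in Control, and rose with E2 (2.24, adjusted p = 2.1e-20). FGB, a fibrinogen chain, rose with E2 (1.3, adjusted p = 1.2e-15).

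Of the NR5A2 list 10 of 13 genes were tested: 2 rose and 2 fell with E2 (median -0.08), 2 rose and 7 fell with PPT (-0.88), and 0 rose and 4 fell with DPN (-0.57). CYP8B1, the sterol hydroxylase that sets the kind of bile acid made, had 5.08 ± 0.339 CPM in E2, 1.18 ± 0.32 in PPT, 6.54 ± 0.0144 in DPN and 6.32 ± 1.6 in Control, and fell with PPT (-2.41, adjusted p = 6.29e-09). APOA1, the main protein of high-density lipoprotein, fell with PPT (-1.34, adjusted p = 3.04e-15) and DPN (-0.95, adjusted p = 3.76e-12). SCARB1, the receptor of these particles, rose with E2 (1.28, adjusted p = 9.34e-15), and NR0B2, a repressor that binds NR5A2, fell with E2 (-0.72, adjusted p = 8.83e-08). At an unadjusted p under 0.05, 1 gene of the list was higher with DPN, and in DESeq2 0 were. The 2 rises with E2 became 1 without Control replicate 2 or E2 replicate 1. Of the ONECUT1 list 9 of 10 were tested: 5 rose and 1 fell with E2 (0.38), 0 rose and 6 fell with PPT (-0.55), and 3 rose and 4 fell with DPN (-0.17), and the 4 became 2 without Control replicate 1. At an unadjusted p under 0.05, 1 gene of it was higher with PPT, and in DESeq2 0 were. TTR, a thyroid hormone carrier, fell with E2 (-0.82, adjusted p = 3.26e-10), PPT (-1.49, adjusted p = 4.46e-15) and DPN (-1.24, adjusted p = 1.97e-13). The protease inhibitor SERPINA1 rose with E2 (1.18, adjusted p = 8.99e-15) and fell with PPT (-1.10, adjusted p = 7.65e-14) and DPN (-0.65, adjusted p = 2.55e-09). Over all tested genes 30.8% rose and 31.8% fell with E2, 22.9% and 22.8% with PPT, and 24.4% and 24.1% with DPN. The medians over all tested genes were 0 with E2, 0.01 with PPT and 0 with DPN, and the part of the factors in any of these target genes was not tested.

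**Figure D5:**
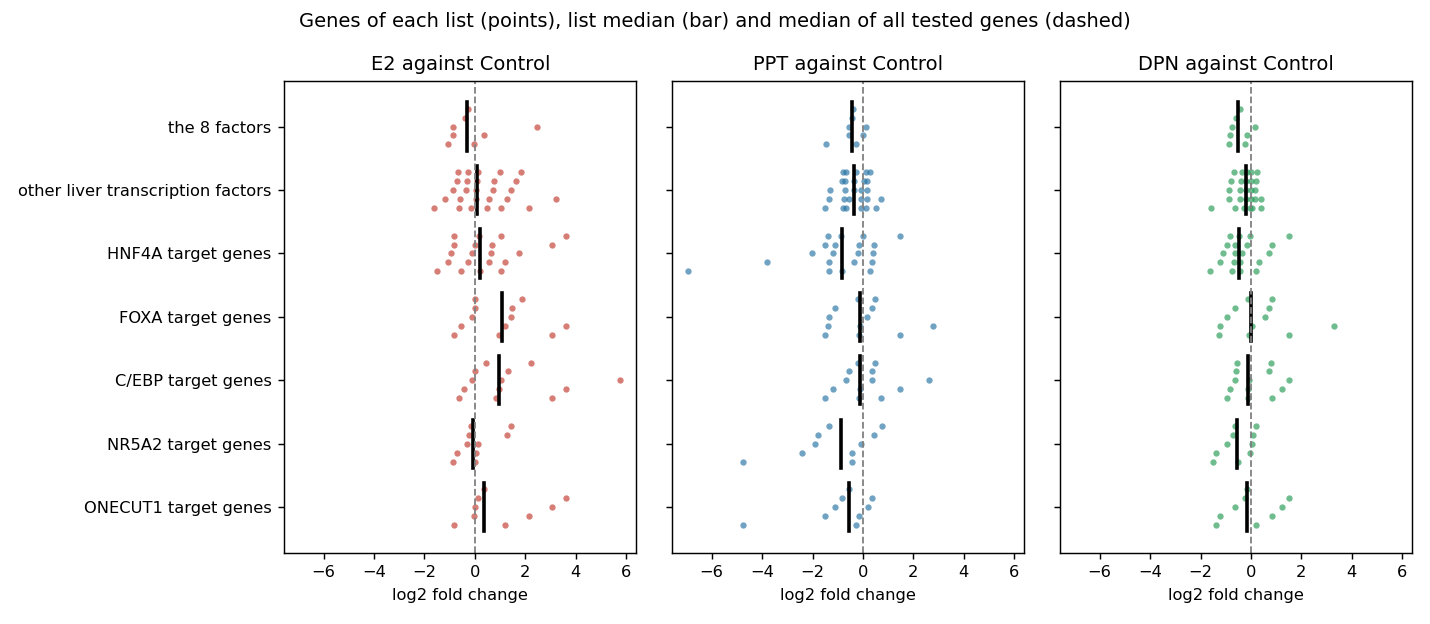
Log2 fold change against Control of each tested gene of the 8 factors, of other liver transcription factors and of the target lists (points), with the list median (bar) and the median of all tested genes (dashed line), for E2, PPT and DPN. Medians range from -0.33 to 1.06 with E2 and from -0.88 to -0.11 with PPT, and the lowest point with PPT is OTC, which had no counts there, so its fitted value is not a bound.

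The genes whose levels followed each factor most closely over the 8 libraries were sought by Pearson's r of log2 CPM among 10717 other genes with a mean of at least 5 CPM, as a description. The 8 points come from 4 groups of 2 and share their scaling, and many genes exceeded an r of 0.9 with each factor, between 81 with NR5A2 and 861 with ONECUT1. For HNF4A these were NUP210 (0.981), IGDCC3 (0.977) and MAML1 (0.965). For FOXA1 they were RMND5A (0.998), YEATS4 (0.996) and RFX5 (0.988), and for FOXA2 SPICE1 (0.995), SOX9 (0.995) and CCSAP (0.993). For FOXA3 they were RPSAP9 (0.994), NUP160 (0.986) and RPSA2 (0.983), of which RPSAP9 and RPSA2 can share reads with near-identical ribosomal protein copies and are uncertain. CEBPA was followed by NOP56 (0.99), TUFM (0.988) and IGF2BP1 (0.987), and CEBPB by NOLC1 (0.997), SEPHS1 (0.995) and CCT5 (0.987). NOP56 and NOLC1 are nucleolar proteins of ribosome assembly. ONECUT1 was followed by ANO9 (0.998), ST13 (0.995) and VEGFA (0.994), and VEGFA, an endothelial growth factor, had a log2 fold change of 2.15 with E2, -0.45 with PPT and -0.61 with DPN. NR5A2 was followed by C5orf15 (0.993) and ITM2B (0.98).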

How the data were processed

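RNA-Seq was analysed in 8 HepG2 libraries, 2 each of E2, PPT, DPN and Control. Per the paper's methods, the authors made stranded libraries from poly(A) RNA, sequenced 50 bp from a single end and aligned to GRCh38.p10. The deposited files hold a whole-number count per Entrez gene, taken as raw counts. The aligner, the counter and their use of strand are not given in the sources used here. The deposited counts, 25103160 to 29670814 per library, were used as they are. Symbols from RefSeq matched 99.4% of the genes, and positions and lengths come from GENCODE 44.

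Genes passing filterByExpr (minimum count 10, minimum total 15) were fitted in edgeR 4.0.16 (R 4.3.3) over all 8 libraries with TMM scaling, and the 6 contrasts were tested with the quasi-likelihood F test and Benjamini-Hochberg adjustment. The thresholds of a call, 1.5 and 0.01, are those of the study, which used DESeq2. Standard errors are the log2 fold change over the root of F. Intervals are 95% intervals. The dispersion gave a biological coefficient of variation of 6.8%. Across genes, replicates had r of 0.989 to 0.991 and differed beyond counting noise.

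The 8 genes and all lists were chosen with earlier results of these data known. Named were the 8 factors, up to 4 genes per list with the smallest p against Control, the 4 noncoding neighbours, and the 3 genes per factor with the highest r, of which 1 for NR5A2 is not reported here. ONECUT2, NR5A1, CEBPD, CEBPG, HHEX with E2, PPARA with DPN and OTC were added after their values were seen. So were SERPINA1 with PPT and DPN, AFP and TTR with E2 and DPN, and APOA1 with DPN. A compound not mentioned for a list gene may also have changed it. Alternatives were DESeq2 1.42.0, edgeR with only the libraries compared, other scalings (RLE, upper quartile, library size only), other filters, the study's thresholds, a replicate block and leaving out each library. The fit was also run on simulated counts with 1 common dispersion, in which a small part of the genes changed with E2, in either direction. Of those changed by a log2 fold of 0.5, 71.6% passed, and of those changed by 1, 97%. It does not bear on scaling where most genes change, as 62.6% did with E2 here.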

Additional observations from a re-analysis of the deposited data

How the results depend on the processing

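With a log2 fold change over 1.5 in size and an adjusted p under 0.01 in place of 0.05 alone, 1 of the 8 factors was higher and 0 lower in E2 against Control, PPT or DPN and in DPN against PPT, and 0 were lower with PPT or DPN against Control. Under that rule the other liver factors gave 4 higher and 1 lower with E2, 0 and 1 with PPT and 0 and 1 with DPN. The HNF4A list gave 3 and 0, 0 and 3, and 0 and 0 in the same order, the FOXA list 3 and 0, 1 and 0, and 1 and 0, the C/EBP list 4 and 0, 1 and 0, and 0 and 0. The NR5A2 list gave 0 and 0, 0 and 3, and 0 and 0, the ONECUT1 list 3 and 0, 0 and 1, and 0 and 0, and the neighbouring noncoding genes 0 throughout. Tested genes numbered 27, 20, 12, 13, 10, 9 and 4 in these lists, in the order given. By the same rule 7.15% of all tested genes were higher and 2.98% lower with E2, 1.90% and 2.86% with PPT, and 1.92% and 2.02% with DPN.

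Scaled by library size only, 1 factor was higher in E2 against Control and 3 in E2 against PPT, and 4 genes of the FOXA list, 5 of the NR5A2 list and 2 of the ONECUT1 list were lower with E2. DESeq2 on 8 libraries left 3 factors lower with E2. With DPN, 3 other liver factors were higher under RLE scaling and 2 with a filter of 1 CPM in 2 libraries. The noncoding genes higher with E2 were 1 in DESeq2 (8 or 4 libraries), in edgeR on 4 libraries, with library size only and with no low-count filter, and those higher with DPN were 0 in DESeq2 (8 or 4 libraries). Leaving out single libraries gave 3 to 5 factors lower with E2 against Control, 0 to 1 higher with PPT against Control and 1 to 2 higher in DPN against PPT. It gave 1 to 3 other liver factors higher with DPN, 1 to 2 of the NR5A2 list higher with E2, 2 to 4 of the ONECUT1 list lower with DPN, 1 to 2 noncoding genes higher with E2 and 0 to 1 higher with DPN.

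The 48 log2 fold changes of the factors were computed again under 17 alternatives each. Of these values 766 kept their direction and side of the threshold, 31 missed it, 5 newly passed it and 14 changed sign, all 14 in differences that had not passed. For each comparison, some alternatives left out a library of neither group compared. Those bear on it only through the shared scaling, filter and dispersion. The sign turned for HNF4A in E2 against DPN with library size only (-0.07), for FOXA1 in DPN against PPT in DESeq2 on 8 libraries and RLE scaling (0.01 each), and when single libraries were left out (-0.11 to 0.07), and for CEBPB in PPT against Control on leaving out single libraries (-0.01 to 0.25). CEBPA in PPT against Control was -0.01 in DESeq2 on 8 libraries, edgeR on 4 libraries and RLE, upper-quartile and library-size scaling, 0 in DESeq2 on 4 libraries, and -0.05 to 0.06 when single libraries were left out. The causes were not tested.

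Libraries with the same number did not deviate together (r of -0.0645 to 0.0233 over genes), so the numbers do not pair them. With the replicate number as a block, counts of changed factors kept their values, such as 2 higher and 5 lower with E2, 5 lower with PPT and 7 lower with DPN. ONECUT1, at 35 to 84 counts outside E2 cells, had the widest intervals of the 8 factors.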
